A study of Mus musculus with 2 samples.

Results

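The bone morphogenetic protein (BMP) pathway and its Id target genes were examined in mouse embryonic stem cells (ESCs) through 10 genes chosen by symbol, namely Id1, Id2, Id3, Id4, Bmp4, Bmp7, Bmpr1a, Smad1, Smad5 and Smad6. All 10 were found among the 24532 genes of the deposited table. RNA-seq of polyadenylated RNA compared E14, an established mouse ESC line with wild-type Sox2, with E14-Sox2 TA/WT cells, made from E14 by CRISPR-Cas9. These edited cells carry T258A on 1 Sox2 allele and wild-type sequence on the other. The edit replaces a threonine of Sox2 that can carry the sugar O-GlcNAc with alanine, and the study asked which genes depend on it. Each genotype had 1 library, and no age applies to these cell lines.

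The culture medium of E14 held serum and leukemia inhibitory factor (LIF). The edited cells were grown from single sorted cells, selected by sequencing and in addition maintained with the Mek inhibitor PD0325901 and the Gsk3 inhibitor CHIR99021, both removed before use. Genotype, clonal origin and culture history therefore cannot be told apart in these libraries. No difference given here has a replicate check or a p-value, and every 95% interval covers the counting of reads alone, not the variation between cultures.

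BMPs are secreted ligands that bind paired type I and type II receptor kinases. The activated type I receptor phosphorylates Smad1, Smad5 or Smad9, which enter the nucleus with Smad4 and switch on target genes, and the inhibitory Smads, Smad6 and Smad7, feed back on the receptors. Id genes are among the most direct targets. Their proteins hold a helix-loop-helix domain without a DNA-binding region, so they capture E proteins and keep them from forming active pairs with lineage factors. In mouse ESCs kept in LIF, BMP signaling and Id proteins are known for holding back neural differentiation.

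Totals were 60263536 reads in E14 and 44609228 in the edited cells, and 3 reads corresponded to 0.0498 and 0.0673 CPM (reads scaled to the library total). Levels are given as TPM, a read count scaled by transcript length and library size that can be compared between genes. Pluripotency markers were present in both libraries, with a summed TPM of 3704 over 5 genes in E14 and 3455 in the edited cells. Among them Nanog alone was more than 2-fold lower in the edited cells, with a TPM of 527 and 251 and a log2 ratio of -1.07 (-1.10 to -1.04). Zfp42 had a log2 ratio of -0.23, and Pou5f1, Esrrb and Utf1 had ratios of 0.03, 0.10 and 0.24. Sox2 itself had a TPM of 373 and 274, which does not check the edit, because the table holds no sequence. Of 9094 genes with a TPM of 10 or more in either library, 379 were more than 2-fold higher and 370 more than 2-fold lower in the edited cells. With the fragment-scaled FPKM values the split was 278 higher and 496 lower.

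Of the 10 BMP pathway and Id genes, 8 reached a TPM of 10 in at least 1 library, and Id4 and Smad6 did not. Bmp4 and Id2 were more than 2-fold higher in the edited cells, where 4.17% of all genes past the filter were called in that direction. Bmp7 was more than 2-fold lower, where 4.07% of all genes were called, and it reached a TPM of 10 in E14 alone, so it could pass the filter only by being high there. In either direction 3 of 8 members were called, beside 8.24% of all genes. Of the 7 members with a TPM of 10 or more in both libraries, Bmp4 and Id2 were called, beside 4.72% of all genes under that filter. Across all 10 members 4 log2 TPM ratios were above 0 and 6 below it, and that of Smad5 changed sign under 1 correction given with its values. Their median was -0.21, beside 0.04 over the 13269 genes with a mean TPM of 1 or more, and 53.2% of those genes (7053) had a higher TPM in the edited cells. The majority turned with the scaling, since 5639 of the 13269 had a higher FPKM there.

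**Figure D1:**
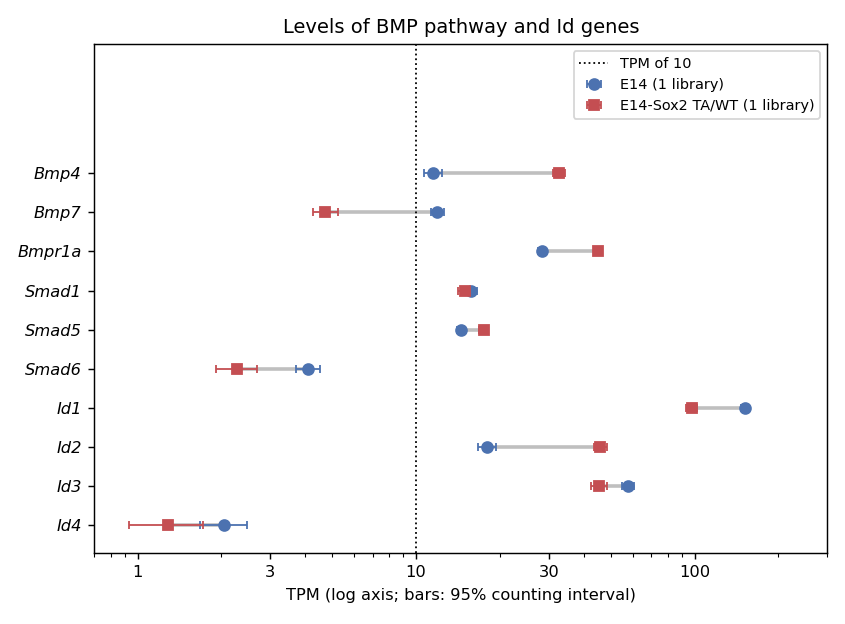
TPM on a log axis for each of the 10 genes in E14 (blue circles) and the edited cells (red squares), 1 library each, with 95% counting intervals. Bmp4 and Id2 lie far to the right in the edited cells, Bmp7 and Id1 to the left, and both Smad1 points lie together.

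Within E14 the TPM order ran from Id1 through Id3, Bmpr1a, Id2, Smad1, Smad5, Bmp7, Bmp4 and Smad6 down to Id4. The counting intervals of the neighbours Smad1 and Smad5 overlapped there, as did those of Bmp7 and Bmp4. Within the edited cells the order was Id1, Id2, Id3, Bmpr1a, Bmp4, Smad5, Smad1, Bmp7, Smad6 and Id4. There Id2, Id3 and Bmpr1a were level within counting error, at a TPM of 45.9, 45.3 and 45.1. Id1 was above 95.7% of all genes in the E14 table and above 92.5% in that of the edited cells, whereas Id4 sat near the middle of the table in both, above 50.7% and 48.6%.

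**Figure D2:**
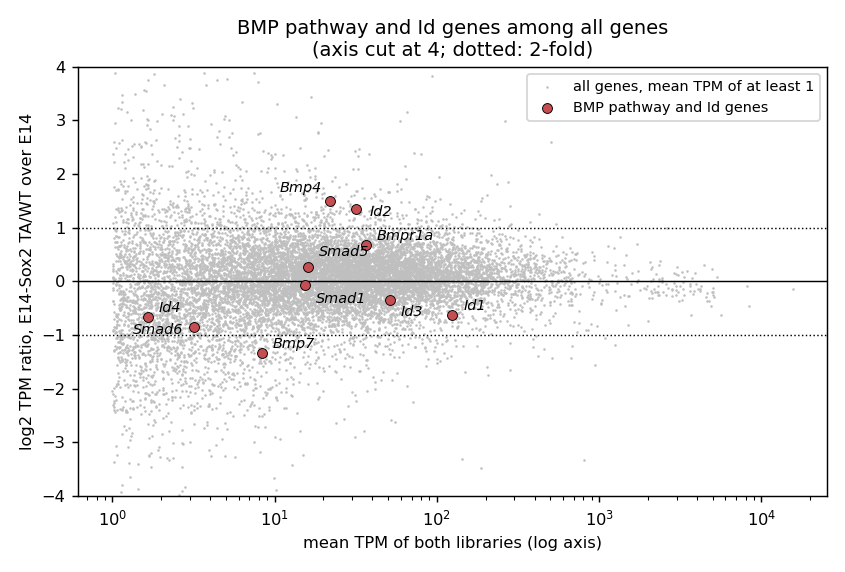
Log2 TPM ratio of E14-Sox2 TA/WT over E14 against the mean TPM of both libraries (log axis) for genes with a mean TPM of 1 or more (grey) and the 10 named genes (red), with dotted lines at 2-fold and with 54 genes beyond the vertical axis and 21 without reads in 1 library not drawn. Bmp4 and Id2 lie above the upper line, Bmp7 below the lower line and the other 7 between them.

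The ligands Bmp4 and Bmp7 differed in opposite directions. Bmp4, the ligand best known for sustaining Id expression in ESCs, had 746 reads and a TPM of 11.5 (95% counting interval 10.7 to 12.35) in E14 against 1416 reads and a TPM of 32.6 (30.9 to 34.3) in the edited cells. It was thus 2.84-fold higher in the edited cells, with a log2 ratio of 1.504 (1.37 to 1.63), and 1.36% of genes past the filter had a larger ratio. Bmp7, a ligand of another BMP subgroup, had 1379 reads and a TPM of 11.9 (11.3 to 12.6) in E14 against 367 reads and a TPM of 4.73 (4.26 to 5.24). It was 2.52-fold lower in the edited cells, with a log2 ratio of -1.33 (-1.505 to -1.17), and 2.31% of genes past the filter had a smaller ratio. Fewer cells that express a gene and less RNA per cell cannot be told apart in these bulk samples. Both calls were kept under every scaling of the libraries, within which Bmp4 ran from 1.36 to 1.64 and Bmp7 from -1.48 to -1.24.

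A ratio between a pair of genes within a library does not depend on how the libraries are scaled. The TPM of Bmp4 over Bmp7 was 0.964 in E14 and 6.89 in the edited cells, a log2 change of 2.84 (2.62 to 3.05). Over the 10 Bmp ligand genes of the table, the summed TPM was 28.6 in E14 and 45.6 in the edited cells. Bmp4 made up 40.2% of that sum in E14 and 71.5% in the edited cells, and Bmp7 41.7% and 10.4%. The leading ligand transcripts were thus Bmp7 and Bmp4 in similar amounts in E14 and Bmp4 in the edited cells.

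Bmp4 lies on chromosome 14 (46383525 to 46390669, GRCm38) and Bmp7 on chromosome 2 (172868012 to 172940321). The 250 bases before the RefSeq start of Bmp4 (GRCm38.p6, minus strand, chr14:46390670-46390919) are shown because Bmp4 had the highest ratio of the 10 genes. Capitals mark E-boxes, CANNTG, the general motif of basic helix-loop-helix factors, only some of which pair with the E proteins captured by Id proteins.
Bmp4: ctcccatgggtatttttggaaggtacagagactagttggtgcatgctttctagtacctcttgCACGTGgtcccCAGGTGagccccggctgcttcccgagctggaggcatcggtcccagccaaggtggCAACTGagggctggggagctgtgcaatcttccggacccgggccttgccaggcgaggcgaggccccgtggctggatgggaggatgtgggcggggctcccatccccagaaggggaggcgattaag
The stretch holds 3 E-boxes. The first, CACGTG, begins 188 bases before the start, and the others begin 177 and 123 bases before it. E-boxes are common, and 72.3% of the 32851 RefSeq promoter windows of the same 300 bases (250 before to 50 after the start) hold at least 1. Of the 10 genes, 8 had such a window, and Id1 and Bmp7 did not. Motifs were searched on both strands, and a match of letters is a description and not a binding site.

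The type I receptor Bmpr1a, which relays the signal of Bmp4 and related ligands, was higher in the edited cells but short of 2-fold. It had 4886 reads and a TPM of 28.3 (27.5 to 29.1) in E14, and 5219 reads and a TPM of 45.1 (43.9 to 46.4) in the edited cells. The log2 ratio was 0.67 (0.62 to 0.73), and 10.9% of genes past the filter had a larger one. It was 0.18 once the dependence of the ratio on GC and length of the transcript was removed, so most of the difference did not remain under that correction. Bmpr1a has a long transcript with little GC, at 5956 bases and 41.3% GC.

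Bmpr1a supplied most of the type I receptor transcripts in both libraries, with 68.6% of a summed TPM of 41.2 in E14 and 77.7% of 58.0 in the edited cells. The 3 type II receptor genes, Bmpr2, Acvr2a and Acvr2b, were named after their values had been seen, and their log2 ratios were 0.67, 0.68 and 0.61. Their summed TPM was 26.9 in E14 and 41.9 in the edited cells. After subtraction of the GC and length trend the ratios of Bmpr2 and Acvr2a were 0.04 and 0.19, while that of Acvr2b was 0.74.

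Of the receptor-activated Smads, Smad1 and Smad5 differed little. Smad1 had 1514 reads and a TPM of 15.8 (15.0 to 16.6) in E14 and 966 reads and a TPM of 15.0 (14.1 to 16.004) in the edited cells. Its log2 ratio of -0.07 had a counting interval that included no change (-0.19 to 0.05). Smad1 lies on chromosome 8 (79338395 to 79399428), where the 723 genes with a mean TPM of 1 or more had a median log2 ratio of 0.26, and relative to that median Smad1 stood at -0.33. Smad5, its close relative on chromosome 13 (56703010 to 56742378), had 3033 reads and a TPM of 14.5 (13.999 to 15.04) in E14 and 2486 reads and a TPM of 17.5 (16.8 to 18.2) in the edited cells. The log2 ratio of Smad5 was 0.27 (0.19 to 0.35), and it changed sign to -0.05 with the GC and length trend removed. With Smad9, like Smad7 described after its values had been seen, which had 45 and 13 reads and a log2 ratio of -1.33 (-2.34 to -0.41), the receptor-activated Smads summed to a TPM of 30.5 in E14 and 32.6 in the edited cells.

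The inhibitory Smad6, itself a BMP target, was lower in the edited cells at low levels. It had 383 reads and a TPM of 4.09 (3.69 to 4.52) in E14 and 143 reads and a TPM of 2.28 (1.92 to 2.68) in the edited cells. The log2 ratio was -0.84 with an interval from -1.13 to -0.56, so that a 2-fold difference lay within counting error. The TPM of Smad5 over Smad6 was 3.55 in E14 and 7.67 in the edited cells, a log2 change of 1.11 (0.82 to 1.41), or 0.59 with the trend removed. Smad7, the other inhibitory Smad, was far more abundant, with a TPM of 32.9 and 41.7, and made up 88.9% and 94.8% of the inhibitory Smad transcripts.

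An annotated start of Smad6 on chromosome 9 is shown over 104 bases that end with the first 4 after that start (GRCm38.p6, minus strand, chr9:64022056-64022159). The stretch holds the Smad palindrome GTCTAGAC (capitals), which reads the same on both strands.
Smad6: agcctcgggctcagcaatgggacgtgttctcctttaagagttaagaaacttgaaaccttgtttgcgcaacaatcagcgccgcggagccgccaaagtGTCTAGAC
The palindrome spans this start, with 4 bases on each side. By the RefSeq bounds of Smad6, which reach 64022085, it lies inside the gene. The palindrome occurs in 0.213% of the 32851 promoter windows, and in no other window of the 8 genes that had one. Id1 and Bmp7 had no window to search.

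The Id genes did not share a direction. Id2 was higher and Id1, Id3 and Id4 were lower in the edited cells. Id1, on chromosome 2 (152736251 to 152737410), had 4456 reads and a TPM of 151 (147 to 156) in E14, and 1928 reads and a TPM of 97.8 (93.5 to 102) in the edited cells. It was 1.55-fold lower, with a log2 ratio of -0.63 (-0.71 to -0.55), and 9.29% of genes past the filter had a smaller ratio. Its ratio was -0.27 after the GC and length trend was subtracted.

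Id2, on chromosome 12 (25093799 to 25096092), had 721 reads and a TPM of 18.0 (16.7 to 19.4) in E14, and 1234 reads and a TPM of 45.9 (43.4 to 48.6) in the edited cells. It was 2.55-fold higher, with a log2 ratio of 1.35 (1.22 to 1.49), and 1.68% of genes past the filter had a larger ratio. Its counting interval lay wholly past 2-fold, as did those of Bmp4 and Bmp7, beside 6.38% of all genes past the filter. Over the scalings of the libraries Id2 ran from 1.21 to 1.35.

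Id3, on chromosome 4 (136143822 to 136145392), had 1733 reads and a TPM of 57.7 (55.0 to 60.5) in E14 and 912 reads and a TPM of 45.3 (42.4 to 48.3) in the edited cells. Its log2 ratio was -0.35 (-0.47 to -0.23), and only -0.07 with the trend removed. Id4, on chromosome 13 (48261116 to 48266028), was the lowest of the family, with 107 reads and a TPM of 2.04 (1.67 to 2.46) in E14 and 45 reads and a TPM of 1.28 (0.935 to 1.72) in the edited cells. The log2 ratio of Id4 was -0.67 with a wide interval of -1.21 to -0.15, which at this depth spans small differences and ones past 2-fold.

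**Figure D3:**
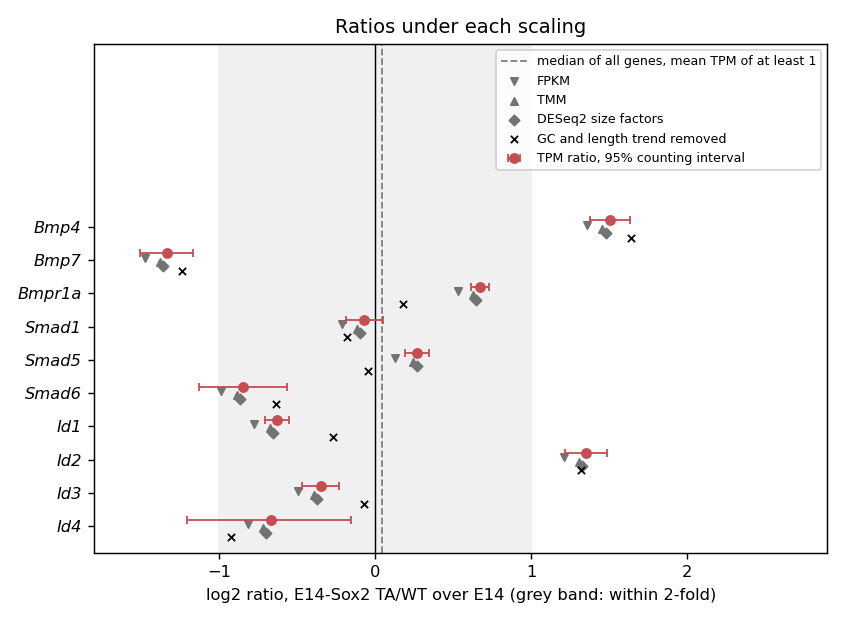
Log2 ratio of E14-Sox2 TA/WT over E14 for each of the 10 genes from the deposited TPM (red circles, 95% counting interval), and from FPKM, TMM or DESeq2 scaling and removal of the GC and length trend (grey and black marks). Bmp4, Id2 and Bmp7 stay outside the 2-fold band under each, while Id1, Id3, Bmpr1a and Smad5 lie closer to 0 with the trend removed, Smad5 to just below it.

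The makeup of the Id family differed between the libraries. The 4 genes summed to a TPM of 229 in E14 and 190 in the edited cells. These sums lack the GC and length correction, under which Id1, Id2, Id3 and Id4 had log2 ratios of -0.27, 1.32, -0.07 and -0.92. Id1 made up 66.1% of the summed TPM in E14 and 51.4% in the edited cells, Id2 7.85% and 24.1%, and Id3 25.2% and 23.8%. The TPM of Id1 over Id2 was 8.42 in E14 and 2.13 in the edited cells, a log2 change of -1.98 (-2.14 to -1.83), or -1.59 with the trend removed. The TPM of Id3 over Id2 was 3.21 and 0.986, a log2 change of -1.70 (-1.88 to -1.52), whereas Id1 over Id3 was 2.62 and 2.16, a log2 change of -0.28 (-0.42 to -0.14). Id2 therefore differed from Id1 and Id3 far more than these differed from each other, beyond counting error. In all, 7 such pairs of members were compared, and they were chosen with the values known.

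**Figure D4:**
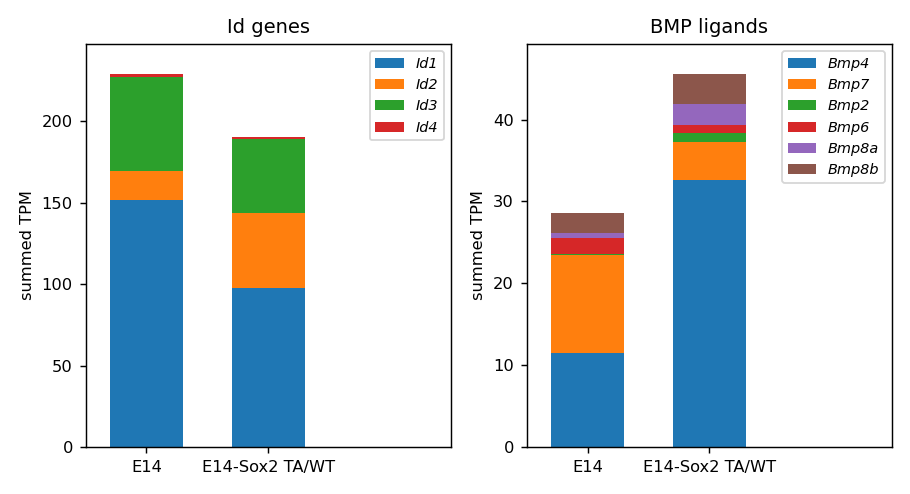
Summed TPM of the Id genes (left) and of the Bmp ligand genes whose TPM over both libraries came to more than 1 (right), as stacked bars from 0 for 1 library of each genotype. The Id2 and Bmp4 segments are taller in the edited cells, and the Id1 and Bmp7 segments are shorter.

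The promoters of Id2 (GRCm38.p6, minus strand, chr12:25096093-25096342) and Id3 (plus strand, chr4:136143572-136143821) are set side by side, each over the 250 bases before the start, because these genes had opposite ratios. A stretch of 70 bases from Id4 (plus strand, chr13:48260936-48261005) and from Bmpr1a (minus strand, chr14:34502707-34502776) is added for the motif they share with Id2. Capitals mark GGCGCC, a GC-rich motif bound by BMP-activated Smads, and the E-box CANNTG.
Id2: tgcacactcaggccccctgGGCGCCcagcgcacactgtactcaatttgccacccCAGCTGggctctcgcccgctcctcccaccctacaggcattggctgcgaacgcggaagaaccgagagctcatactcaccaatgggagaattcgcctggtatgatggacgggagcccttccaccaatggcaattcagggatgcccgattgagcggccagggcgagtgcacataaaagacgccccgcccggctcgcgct
Id3: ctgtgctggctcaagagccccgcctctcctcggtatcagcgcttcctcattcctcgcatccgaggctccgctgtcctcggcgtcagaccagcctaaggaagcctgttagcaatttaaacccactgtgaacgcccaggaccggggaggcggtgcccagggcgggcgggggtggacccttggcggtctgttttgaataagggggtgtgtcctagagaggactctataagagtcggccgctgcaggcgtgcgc
Id4: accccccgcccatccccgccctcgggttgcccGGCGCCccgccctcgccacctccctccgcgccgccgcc
Bmpr1a: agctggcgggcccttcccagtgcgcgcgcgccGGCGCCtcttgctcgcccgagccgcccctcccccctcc
GGCGCC starts 231 bases before the start of Id2, 148 before that of Id4 and 198 before the start used for Bmpr1a. That Bmpr1a start lies inside the gene, whose RefSeq bounds are 34411061 to 34503336, so the Bmpr1a stretch is within the gene. GGCGCC is also in windows of Smad5, so 4 of the 8 genes with a window hold it, beside 11.9% of all windows. These 4 genes had log2 ratios on both sides of 0, with Id4 at -0.67 and Id2 at 1.35. The window of Id2 holds 1 E-box, CAGCTG, and that of Id3 holds neither motif. The Sox core CATTGT, present in 12.6% of all windows, was in none of the windows of the 8 genes, which says only that these letters are not in this stretch. The windows of the 8 genes ran from 60.0% GC (Id3) to 79.3% GC (Bmpr1a), above the median of 52.7% over all windows. The share with GGCGCC given for all windows is therefore not from windows of like GC. It also counts windows, whereas the share among the 8 genes counts genes, some with more than 1 window.

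Reads of overlapping genes could enter some values, since the handling of strand is not given in the sources used here. On the opposite strand, exons of Id4 overlap A330033J07Rik, which had 0 reads in both libraries, and an end of Bmp4 overlaps Gm15217, which had 0 reads in E14 and 3 in the edited cells. The long noncoding RNA gene Gm49291 at Id4 and the antisense gene Gm17110 at Bmpr1a also touch exons, as does the small RNA gene Gm27301 at Smad5 on the same strand, and their reads were not analysed here.

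The other genes of the pathway were taken from 7 lists with 66 genes. Of these, 21 reached a TPM of 10 in at least 1 library, 2 of them were more than 2-fold higher in the edited cells and 0 more than 2-fold lower, beside 4.17% and 4.07% of all genes. The 2 were Skil, which encodes a repressor of Smad transcription, and Tcf4, which encodes an E protein. Over the 42 genes with a mean TPM of 1 or more, the median log2 ratio was 0.24, or 0.07 with the GC and length trend removed.

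None of the 12 further ligand genes reached a TPM of 10, and 4 had no reads. Bmp8a had 44 reads in E14 and 127 in the edited cells, with a log2 TPM ratio of 2.12 (1.62 to 2.65). Bmp6 had 189 and 66 reads and a ratio of -0.94 (-1.37 to -0.53), and Bmp8b, the most abundant of the list, had 225 and 230 reads and a ratio of 0.61 (0.33 to 0.88). Bmp2, the closest relative of Bmp4, was singled out after its values had been seen. It had 17 and 76 reads, at a TPM of 0.147 and 1.01.

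Among the 11 further receptors and co-receptors, 3 reached a TPM of 10 in at least 1 library. Of these 3, 0 were past 2-fold, beside 8.24% of all genes past the filter. Over the 10 with a mean TPM of 1 or more the median was 0.24, which changed sign to -0.03 with the trend removed. Of these 10 the type I receptor Acvrl1 was lowest, with 411 and 109 reads and a log2 ratio of -1.38 (-1.70 to -1.07) at a TPM under 10. The co-receptor Rgmb was highest of the 10 at 0.95 (0.73 to 1.18), and Eng, the co-receptor endoglin, had the highest level and a ratio of -0.49 (-0.57 to -0.42). The type I receptor Bmpr1b, below that level and named after its values had been seen, had 25 and 62 reads and a ratio of 1.94 (1.25 to 2.67).

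Of the 15 extracellular antagonists, which bind ligands and keep them from receptors, 8 had a mean TPM of 1 or more. Of these, 5 were higher and 3 lower in the edited cells, or 6 higher with the trend removed, beside 53.2% of all genes higher by TPM. Of these 8 Fst, the gene of follistatin, was highest, with 147 and 308 reads and a log2 ratio of 1.66 (1.37 to 1.96). Fstl3 was lowest at -0.33 (-0.66 to -0.02), and Fstl1 had the highest level, with a TPM of 47.3 and 70.6. Of the proteases that mature ligands or cleave antagonists, Bmp1 had a ratio of 0.65 (0.51 to 0.79) and Pcsk6 of -0.22 (-0.29 to -0.15).

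Inside the cell, 8 of 9 Smads and regulators with a mean TPM of 1 or more had higher values in the edited cells, beside 53.2% of all genes at that level. With FPKM 7 were higher, beside 5639 of 13269 genes. With the trend removed, which puts the median of all genes at 0, 5 were higher. Smurf1, among the 8, had a log2 ratio of 0.01 with an interval that included no change (-0.06 to 0.08). Skil had 6140 reads and a TPM of 27.8 in E14 and 9021 reads and a TPM of 61.1 in the edited cells, a log2 ratio of 1.13 (1.09 to 1.18). It was under 2-fold with FPKM (0.99) and with the GC and length trend removed (0.70). Tob1 was lowest at -0.12 (-0.20 to -0.04), and the phosphatase gene Ppm1a, the most abundant of the list, had a ratio of 0.26 that changed sign to -0.26 with the trend removed.

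The 3 E protein genes, whose products Id proteins bind, had TPM ratios above 0, also with the trend removed, beside 53.2% of all genes by TPM. Tcf4 had 1778 reads and a TPM of 7.71 in E14 and 2477 reads and a TPM of 16.05 in the edited cells, a log2 ratio of 1.06 (0.97 to 1.15). It reached a TPM of 10 in the edited cells alone, and it was under 2-fold with FPKM (0.91) and with the trend removed (0.68). Tcf3, the most abundant, had a TPM of 85.5 and 94.4 and a ratio of 0.14 (0.10 to 0.19), or 0.00 with FPKM. The summed TPM of the 4 Id genes over that of the 3 E protein genes was 2.18 in E14 and 1.48 in the edited cells. These 2 values were not corrected for the GC and length trend.

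Of 10 other BMP target genes, 6 had a mean TPM of 1 or more, with 1 higher and 5 lower in the edited cells, beside 53.2% of all genes higher. Their median log2 ratio was -0.80, or -0.68 with the GC and length trend removed. Msx2, counted as lower, had a ratio of -0.10 with an interval that included no change (-0.34 to 0.15). Only 1 of the 6, Dusp9, reached a TPM of 10 in at least 1 library, and it was not called. Dusp9, a phosphatase of Erk kinases induced by BMP in ESCs, had the highest level. It had 19177 reads and a TPM of 225 in E14 and 7012 reads and a TPM of 123 in the edited cells, a ratio of -0.87 (-0.91 to -0.83), or -1.02 with FPKM. Of these 6 the homeobox gene Dlx3 was lowest, with 238 and 31 reads and a ratio of -2.41 (-3.00 to -1.86), and the homeobox gene Msx1 highest, with 34 and 104 reads and a ratio of 2.19 (1.61 to 2.79). The level of Dusp9 was thus lower along with that of Id1, while Id2 and Msx1 were higher.

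**Figure D5:**
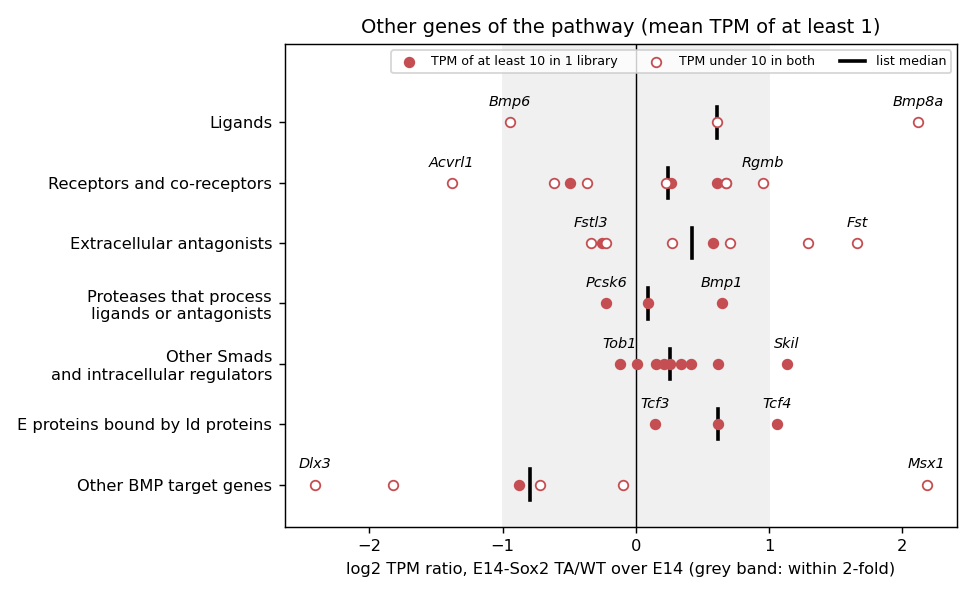
Log2 TPM ratio of E14-Sox2 TA/WT over E14 for genes of 7 further pathway lists with a mean TPM of 1 or more, filled where the TPM reached 10 in at least 1 library, with list medians as black bars and the grey band marking 2-fold. Skil and Tcf4 are the filled points outside the band, and the target genes have the lowest median, -0.80.

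Markers of other cell types differed between the libraries as well. The 6 primitive endoderm markers were all lower in the edited cells, with a summed TPM of 46.2 in E14 and 17.1 in the edited cells. For primitive streak and mesoderm, 4 of 5 markers had a mean TPM of 1 or more and were higher, with a summed TPM of 7.68 and 27.8, and for early neural cells 3 of 5 were so, with 11.3 and 49.3. Of 5 trophoblast markers, 1 was higher, 3 were lower and Elf5 had no reads, with a summed TPM of 66.8 and 34.7. Of 5 fibroblast markers, Dcn had no reads, and the summed TPM was 43.1 in E14 and 16.6 in the edited cells. Of the 4 with reads Thy1 alone was lower, with a TPM of 40.1 and 11.4, whereas Col1a1, Col1a2 and Col3a1 had log2 ratios of 0.15 (-0.05 to 0.35), 1.93 (1.40 to 2.47) and 4.003 (3.24 to 4.88). Their part in the ratios of Bmp4, Bmp7, Id1, Id2 and the BMP target genes was not tested.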

How the data were processed

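RNA-seq libraries of E14 and E14-Sox2 TA/WT ESCs, 1 of each, were analysed from 1 gene table for mm10 (GRCm38). The authors deposited raw read counts, FPKM (scaled by transcript length and fragments per library) and TPM, which summed to 993247 and 994155 per library. The submitters' processing notes name bcl2fastq 2.20.0, Trimmomatic, HISAT2 2.1.0 and StringTie 2.1.3b, without roles, and the handling of strand is not given in the sources used here.

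Genes reaching a TPM of 10 in either library were called where the TPM ratio passed 2-fold, without a pseudocount. The study's methods state the same TPM minimum and fold threshold. Its counts of called genes in each direction for these cells differed from those given here. Counting intervals (95%, exact Clopper-Pearson for ratios, exact Poisson for levels and exact conditional odds ratios for pairs of genes) came from the read counts with SciPy 1.17.1 and cover counting error only. No test was run, since each genotype had 1 library, and the interval script was tested on simulated data. Alternatives were pseudocounts, filters, fold thresholds, FPKM, TMM (edgeR 4.0.16), size factors (DESeq2 1.42.0), centring, and subtraction of binned medians over transcript GC and length (20 bins each, 23977 genes). Centring on chromosome medians and a TPM of at least 10 in both libraries were alternatives chosen after seeing the data.

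The members, lists and motifs were chosen with earlier results of these data known. Named genes were the 10 members, Sox2 and, in each list, the genes with the highest ratio, the lowest ratio and the highest level, and those called, with others marked where they stand. Positions and promoters came from RefSeq (GRCm38.p6), which placed 24462 of 24532 genes, and overlaps from the GENCODE annotation of that build.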

Additional observations from a re-analysis of the deposited data

How the results depend on the processing

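The calls of Bmp4 and Id2 as higher and of Bmp7 as lower were kept under both pseudocounts, FPKM, TMM, DESeq2 size factors, centring, the GC and length trend, chromosome centring, and the requirement that the counting interval lie past 2-fold. Members called higher went from 2 to 3 at 1.5-fold and to 0 at 3-fold. Those called lower went from 1 to 2 at 1.5-fold and to 0 at 3-fold. They also went to 0 with a TPM of at least 10 in both libraries. A looser setting can only add calls and a stricter one only remove them, so the direction of each change was fixed by construction. That no member passed 3-fold was not. The median over the members (-0.21) was -0.35 with FPKM, which shifts every gene by -0.14, -0.34 relative to chromosome medians and -0.13 with the GC and length trend removed, and it changed sign to 0.10 over the 8 members with a TPM of at least 5, which leaves out Id4 and Smad6. Over all genes, 379 higher and 370 lower became 886 and 1366 at a TPM minimum of 1, 1836 and 3388 without a filter, 1291 and 955 at 1.5-fold, 104 and 136 at 3-fold, and 218 and 164 with a TPM of at least 10 in both libraries, and 597 were lower at a TPM minimum of 5. In the 7 pathway lists, 2 higher and 0 lower genes became 0 and 1 with FPKM, 7 and 3 at a TPM minimum of 1, 10 and 11 without a filter, and 6 and 1 at 1.5-fold. The count of higher genes there was 0 with the trend removed or at 3-fold, and 1 with a pseudocount of 1, a counting interval past 2-fold or a TPM of at least 10 in both libraries. Of 8 alternatives for each member, the sign changed for Smad5 alone, in 1. No paired analysis was possible because each genotype had 1 library, and for the same reason no library could be left out. Depth limited Id4 and Smad6 most.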
